A study of Mus musculus with 9 samples.

Results

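Semaphorins, ephrins, netrins and their receptors were followed in F9 cells, a mouse embryonal carcinoma line whose cells start to differentiate when given retinoic acid. The members were the probe sets whose single platform gene symbol begins with Sema, Plxn, Nrp1, Nrp2, Efna, Efnb, Epha, Ephb, Slit, Robo, Ntn or Unc5. The rule found 57 of the 12422 probe sets tested, for 44 of 8251 genes, and used no measured value. They hold 16 semaphorin genes, 5 ephrin-A and 3 ephrin-B genes, 1 netrin, 5 plexins, 1 neuropilin, 7 EphA and 2 EphB receptors, 2 Robo receptors and 1 Unc5 receptor. Unc50 was taken by its spelling; it is not a netrin receptor and is described apart. No symbol beginning with Slit or Nrp2 was found.

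The 9 arrays fall into 3 groups of 3, all of F9 cells cultured for 24 h: vehicle (ethanol in the culture medium), retinoic acid (RA) at 0.5 µM, and trichostatin A (TSA), an inhibitor of histone deacetylases, at 0.07 µM. Each deposited value is a ratio to the mean of the 3 vehicle arrays of that probe set, so the vehicle mean is 1 and levels of different genes cannot be compared. Nor can a dim signal be told from a bright one, and the labelled cell type could not be checked by the presence of its markers. The labels do not say whether the arrays of a group came from separate cultures, so the p-values reflect only how these samples scatter, which can be technical. In RNA from a whole culture, fewer cells of a type and less RNA per cell cannot be told apart.

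Guidance cues steer growing axons and migrating cells. Semaphorins act through plexins, and the secreted class 3 members mostly need a neuropilin as co-receptor; Sema3e is the known exception, which binds Plxnd1 directly. Ephrins are bound to the cell surface and signal with Eph receptors at contacts between cells, A ephrins through a lipid anchor and B ephrins as transmembrane proteins. Netrins bind Dcc and Unc5 receptors, and slits bind Robo receptors. Several of these genes also guide blood vessels and set tissue boundaries in the embryo.

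Of the 5 genes that passed a test below, 3 have at least 200 bases of RefSeq promoter sequence outside their annotated gene span. Nrp1, which also rose with RA, and Sema5b do not. The upstream stretches of Sema3e, Efnb1 and Epha4 are shown on this ground. They are written 5′ to 3′ on the gene's strand in GRCm38.p6, and capitals mark GGGCGG, the box bound by Sp1, on either strand. The stretches are chr5:14025026-14025275 (plus strand), chrX:99135811-99136060 (plus strand) and chr1:77515108-77515338 (minus strand).
Sema3e: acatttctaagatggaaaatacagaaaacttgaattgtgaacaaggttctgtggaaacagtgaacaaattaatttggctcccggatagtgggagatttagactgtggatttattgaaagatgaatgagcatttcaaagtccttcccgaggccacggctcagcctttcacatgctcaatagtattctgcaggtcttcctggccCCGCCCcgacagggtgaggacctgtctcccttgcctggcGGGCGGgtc
Efnb1: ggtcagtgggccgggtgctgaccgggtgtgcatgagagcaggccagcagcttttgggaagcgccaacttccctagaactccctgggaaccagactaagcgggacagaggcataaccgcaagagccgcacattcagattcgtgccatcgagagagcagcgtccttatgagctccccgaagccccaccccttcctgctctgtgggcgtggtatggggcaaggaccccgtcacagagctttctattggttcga
Epha4: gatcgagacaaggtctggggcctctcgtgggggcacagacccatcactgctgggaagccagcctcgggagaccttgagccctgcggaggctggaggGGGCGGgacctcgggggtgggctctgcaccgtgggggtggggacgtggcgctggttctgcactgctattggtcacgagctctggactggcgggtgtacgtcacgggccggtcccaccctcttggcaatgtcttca
Exact matches on both strands were sought to the retinoid receptor motifs AGGTCA and GGGTCA, the E-box CACGTG and GGGCGG. The Sema3e stretch holds GGGCGG 48 bases before the gene's start on the minus strand and 9 bases before it on the plus strand, and the Epha4 stretch holds it 135 bases before the start. In these 3 stretches no whole match to either retinoid motif or to the E-box was found. The Sema3e stretch ends within a match to GGGTCA that runs across the gene's start.

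Promoter windows of 300 bases were listed for 38 of the 44 genes, 51 windows in all, and their base composition differed from that of the whole RefSeq table. The median GC content was 64% in the members' windows and 52.7% over all 32851 windows. GGGCGG, made of G and C only, was present in 74.5% of the members' windows and 35.7% of all windows. All windows cover 27025 genes, beyond those on the arrays, and were not matched to the members for GC content. The share of GGGCGG was therefore not separated from base composition. AGGTCA was present in 15.7% against 16.3%, GGGTCA in 13.7% against 13.7%, and CACGTG in 7.84% against 7.15%. The windows of Sema3e (GGGTCA, across the gene's start) and Nrp1 (AGGTCA) each held 1 retinoid motif, the Sema3e window also held CACGTG past the start, and the windows of Efnb1, Epha4 and Sema5b held no retinoid motif. No member window held 2 such motifs in direct repeat with 2 or 5 bases between them, as did 0.0396% and 0.0304% of all windows. These letters were matched as text, and binding was not measured.

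On 1 probe set each, 4 guidance genes rose with RA: the ligands Sema3e and Efnb1 and the receptors Nrp1 and Epha4. TSA raised Sema3e as well and lowered another semaphorin, Sema5b. The same probe sets of Efnb1, Nrp1 and Epha4 were higher in RA than in TSA when the treatments were compared directly. The second probe sets of Nrp1 and Epha4 did not pass, nor did Epha4 averaged over both (limma adjusted p = 0.373 in RA). Without RA replicate 1 no member passed in RA against vehicle. There the Epha4 call was lost without any 1 of the 9 arrays. A member was called when limma's test across all probe sets gave a Benjamini-Hochberg adjusted p under 0.05. No member fell with RA, where 1 was lower at an unadjusted p under 0.05 by limma. In RA against vehicle 4 of 57 member probe sets were called, or 7.02%, all higher, beside 1.36% of all probe sets, or 0.934% called higher. In TSA against vehicle 2 were called, or 3.51%, near the 3.48% of all probe sets. In RA against TSA 3 were called, or 5.26%, all higher in RA, beside 3.91% of all probe sets, or 1.7% called higher. The members had a median log2 change of -0.03 (RA) and 0.06 (TSA), beside -0.12 and -0.17 over all probe sets. Centring the arrays on their medians moved the members' medians to 0.13 and 0.26, which turns the sign for RA. The TSA median was -0.10 without vehicle replicate 1 and -0.01 without TSA replicate 3, so its sign is not settled either. Over all probe sets centring turned 116 higher and 53 lower calls in RA into 148 and 37, and 274 and 158 in TSA into 379 and 82. RA and TSA share the vehicle arrays as control.

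**Figure D1:**
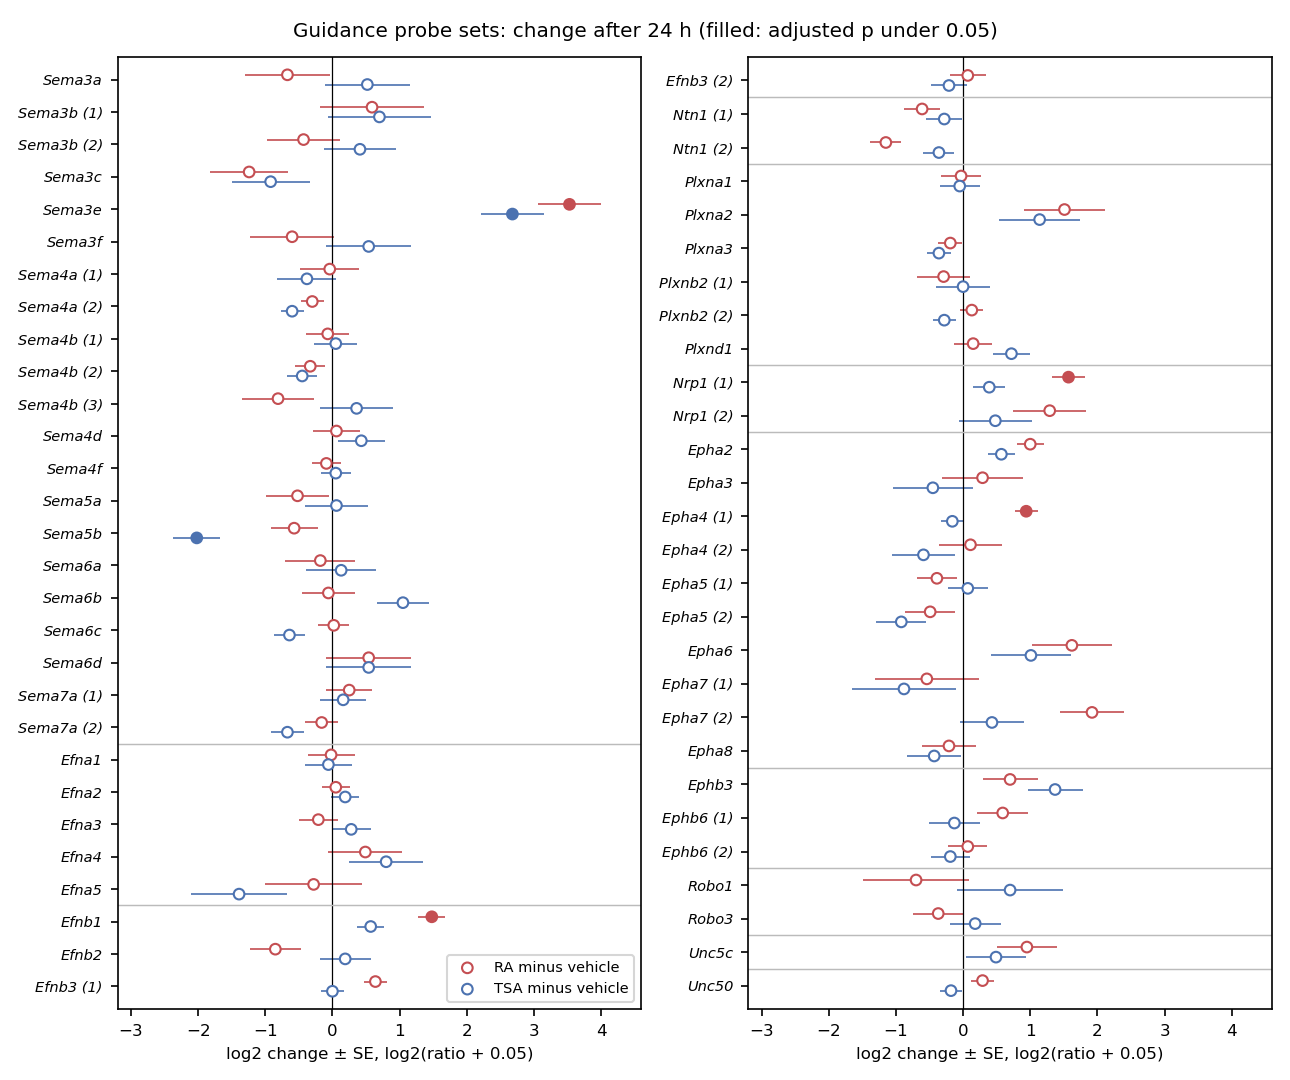
Log2 change, on the log2(ratio + 0.05) scale, of each of the 57 member probe sets in RA (red) and TSA (blue) against vehicle, with bars for the SE of the fit and filled points for an adjusted p under 0.05; grey lines part the families, and numbers in brackets order the probe sets of a gene. Sema3e lies farthest to the right in both treatments, Sema5b farthest to the left in TSA, and Efnb1, Nrp1 (1) and Epha4 (1) are filled in RA.

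Some facts of the arrays bear on these counts. The vehicle arrays scattered most, with a median SD over the members of 0.46 on the log2 scale, beside 0.353 in RA and 0.347 in TSA. The median member ratio was 0.81, 0.97 and 1.19 on vehicle replicates 1, 2 and 3, while the median of all probe sets was 1.02, 0.984 and 0.975. Vehicle replicate 3 was the highest vehicle array for 31 of 57 members, or 54.4%, against 39% of all probe sets. It also had the highest 18S rRNA signal, 2.4 times the vehicle mean, followed by RA replicate 3 at 0.961 and vehicle replicate 1 at 0.538, with 0.073 or less on the other 6 arrays. The median member ratio on RA replicate 3 was 1.11, against 0.91 and 0.837 on the other RA arrays. The part of 18S signal in the members' values was not tested. Without vehicle replicate 3 and RA replicate 3, which were chosen after seeing the data, the members called by limma were Sema3e and Plxna2 in RA, the same genes in TSA, and Epha4 in the direct comparison.

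Sema3e, the secreted ligand of Plxnd1, had the largest change of any member in both treatments. Its ratio was 1.11, 0.84 and 1.05 on the vehicle arrays, 16.6, 14.4 and 7.18 on the RA arrays and 8.64, 10.5 and 3.25 on the TSA arrays. All treated arrays lay above all vehicle arrays, replicate 3 was the lowest array in each treatment, and the RA and TSA arrays overlapped. The means were 12.7 ± 4.94 in RA and 7.45 ± 3.75 in TSA (SD, n = 3). By limma the log2 change was 3.53 (SE 0.47, adjusted p = 0.0112) for RA and 2.68 (SE 0.47, adjusted p = 0.0213) for TSA. RA minus TSA was 0.84 with a 95% interval from -0.23 to 1.91 (adjusted p = 0.427, limma), so a difference between the treatments was not shown and a 2-fold difference is within the interval. The RA call was lost without vehicle replicate 2 (limma adjusted p = 0.0509), RA replicate 1 (0.0592) or RA replicate 2 (0.0622). The TSA call was lost without vehicle replicate 1 (0.0539), vehicle replicate 2 (0.077), TSA replicate 1 (0.0759) or TSA replicate 2 (0.0952), and in 2 other settings.

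Plxnd1, the receptor to which Sema3e binds, had ratios of 0.966, 1.13 and 0.908 on the vehicle arrays, 0.886, 0.995 and 1.55 on the RA arrays and 1.22, 2.06 and 1.84 on the TSA arrays. The TSA arrays all lay above the vehicle arrays, while RA and vehicle overlapped. Neither treatment passed the test, at 0.15 for RA and 0.72 for TSA on the log2 scale (limma adjusted p = 0.883 and 0.202). Sema3e lies at chr5:14025276-14256689 in GRCm38.p6, 422 kb from Sema3a (chr5:13124822-13603485). Sema3a, a secreted repellent of axons, changed by -0.67 with RA and 0.52 with TSA and did not pass.

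The other class 3 semaphorins, all secreted, did not pass in any comparison. Sema3c had ratios of 0.404, 0.436 and 2.16 on the vehicle arrays, 0.406, 0.281 and 0.197 in RA and 0.261, 0.375 and 0.5 in TSA. Vehicle replicates 1 and 2 lay within the range of the treated arrays and replicate 3 above it. Sema3f read 0.446, 1.73 and 3.47 on the TSA arrays, the widest spread of its 3 groups, and 0.6, 0.586 and 0.65 in RA. The probe sets of Sema3b changed by 0.59 and -0.43 in RA and by 0.70 and 0.41 in TSA. Sema3b and Sema3f are neighbours on chromosome 9, 72.3 kb apart.

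Sema5b (chr16:35541154-35664261), a transmembrane semaphorin with thrombospondin repeats, fell in TSA. Its ratio was 0.698, 0.94 and 1.36 on the vehicle arrays, 0.711, 0.486 and 0.734 on the RA arrays and 0.31, 0.111 and 0.218 on the TSA arrays. Every TSA array lay below every vehicle and RA array, and the RA arrays overlapped with vehicle. The TSA mean was 0.213 ± 0.0996 (SD, n = 3), a log2 change of -2.02 (SE 0.35, limma adjusted p = 0.0213). The RA change was -0.57 (adjusted p = 0.562), and RA minus TSA was 1.45 (95% interval 0.65 to 2.26), which did not pass limma's test with an adjusted p of 0.0642. Tested over genes in place of probe sets, that difference passed, with a limma adjusted p of 0.0495. The fall with TSA was lost without vehicle replicate 2 (limma adjusted p = 0.0732), TSA replicate 2 (0.0778), TSA replicate 3 (0.0665) or vehicle replicate 3 and RA replicate 3 together (0.0623), after quantile normalisation (0.0507) and in the fit on the 6 arrays compared (0.0658). Sema5a, the other class 5 member, changed by -0.52 with RA and 0.06 with TSA on the log2 scale and did not pass.

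The remaining semaphorins are membrane-bound, and none passed in any comparison. The closest in TSA was 1 of the 2 probe sets of Sema4a, a semaphorin with roles in immune cells and retina. Its ratios were 0.979, 1.06 and 0.957 in vehicle, 0.815, 0.77 and 0.818 in RA and 0.688, 0.675 and 0.573 in TSA. The 3 groups did not overlap, and the TSA change was -0.60 (limma adjusted p = 0.0941). The other Sema4a probe set, whose suffix _r_at marks a design that did not meet all of the maker's selection rules, read from 0.553 to 1.77 on the vehicle arrays alone. In class 6, Sema6b read 1.48, 3.3 and 1.87 in TSA against 0.742, 1.15 and 1.11 in vehicle, and Sema6c read 0.565, 0.661 and 0.64 against 0.875, 1.01 and 1.11. Both kept their TSA arrays apart from vehicle, in opposite directions, with limma adjusted p of 0.187 and 0.168. Sema6a and Sema6d had vehicle ratios from 0.441 to 1.88 and from 0.206 to 1.82, wider than any shift of theirs between groups.

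Of the rest, 1 probe set of Sema7a, which carries a lipid anchor, read 0.522, 0.48 and 0.896 in TSA against 0.992, 1.05 and 0.959 in vehicle (log2 change -0.67, limma adjusted p = 0.191), and the other changed by 0.16. The 3 probe sets of Sema4b differed from vehicle by -0.07, -0.33 and -0.81 in RA and by 0.05, -0.45 and 0.36 in TSA. The last of these has the suffix _f_at, for probes shared within a gene family, and its RA arrays lay below vehicle without passing. Sema4d, the ligand of plexin B receptors, changed by 0.06 and 0.43, and Sema4f by -0.09 and 0.05. Over all 21 semaphorin probe sets the median was -0.16 (RA) and 0.13 (TSA) on the log2 scale.

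Among the ephrins, Efnb1 rose with RA. This X-linked transmembrane ligand of EphB receptors (chrX:99136061-99149022) takes part in forming boundaries between cell groups. Its ratio was 1.12, 0.843 and 1.04 on the vehicle arrays, 3.03, 2.39 and 3.21 on the RA arrays and 1.41, 1.54 and 1.54 on the TSA arrays. The 3 groups did not overlap, with TSA between vehicle and RA. The means were 2.88 ± 0.427 in RA and 1.49 ± 0.0755 in TSA (SD, n = 3). By limma RA differed from vehicle by 1.48 on the log2 scale (SE 0.20, adjusted p = 0.0111) and from TSA by 0.91 (SE 0.20, adjusted p = 0.0404), while TSA differed from vehicle by 0.57 (adjusted p = 0.161). The RA call was lost in the fit on the 6 arrays compared (limma adjusted p = 0.0706) and without vehicle replicate 2 (0.0537) or RA replicate 1 (0.061). Without vehicle replicate 3 and RA replicate 3 together it was lost as well (0.0643). The difference from TSA was lost without vehicle replicate 2 (0.0615), any 1 RA array (0.135, 0.0643 and 0.121 for replicates 1 to 3) or any 1 TSA array (0.14, 0.129 and 0.116), without the same 2 arrays (0.098) and after quantile normalisation (0.116). That difference was also lost in the fit on the 6 arrays compared (limma adjusted p = 0.0531) and with the replicate block (0.0501).

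The other B ephrins did not pass. Efnb2, the ligand best known from arteries, read 1.27, 1.25 and 0.479 in vehicle, 0.677, 0.427 and 0.399 in RA and 1.27, 1.01 and 0.923 in TSA. The RA arrays lay below the TSA arrays but overlapped with vehicle, and RA minus TSA was -1.04 (limma adjusted p = 0.205). Of the probe sets of Efnb3, 1 read 1.61, 1.68 and 1.47 in RA against 0.975, 0.906 and 1.12 in vehicle and 0.946, 1.01 and 1.04 in TSA. Its RA change of 0.64 and its difference from TSA of 0.64 had limma adjusted p of 0.135 and 0.0835. The other Efnb3 probe set changed by 0.07 in RA, with overlapping arrays.

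None of the 5 A ephrins passed limma's test in any comparison, none had an unadjusted p under 0.05, and in each the arrays of the groups overlapped. Efna1, Efna3 and Efna4 lie within chr3:89271730-89338028, with gaps of 32.9 kb and 10.5 kb between the genes. Their log2 differences from vehicle were -0.02, -0.21 and 0.49 in RA and -0.06, 0.28 and 0.80 in TSA, with SEs of 0.35, 0.29 and 0.55. Efna2 changed by 0.05 in RA and 0.19 in TSA. Efna5, which repels retinal axons, had the largest A ephrin change, -1.39 in TSA (SE 0.72, limma adjusted p = 0.331). Its ratios were 0.424, 0.685 and 1.89 in vehicle, 0.409, 0.634 and 1.15 in RA and 0.163, 0.14 and 0.867 in TSA, and replicate 3 was the highest array in each group.

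Netrin 1, which attracts or repels axons depending on the receptor, was measured by 2 probe sets. The second, in order of identifier, read 0.761, 1.05 and 1.19 in vehicle, 0.38, 0.359 and 0.526 in RA and 0.737, 0.698 and 0.843 in TSA. All RA arrays lay below all others, and the log2 change in RA was -1.15 (SE 0.23, limma adjusted p = 0.0574), just outside the threshold. Without vehicle replicate 1 it fell by 1.33 and passed (0.045). The first probe set read 0.585, 0.495 and 0.869 in RA against 0.85, 1.1 and 1.05 in vehicle, a change of -0.61 (limma adjusted p = 0.397). In TSA they changed by -0.36 and -0.28. Unc5c, a netrin receptor that mediates repulsion, read 2.95, 1.51 and 1.45 in RA, 1.22, 2.32 and 0.849 in TSA and 0.776, 1.53 and 0.691 in vehicle, with overlap in both treatments and a log2 change of 0.95 in RA (limma adjusted p = 0.439).

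Nrp1, co-receptor of class 3 semaphorins and of vascular endothelial growth factor, rose with RA on the first of its 2 probe sets. The gene lies at chr8:128358591-128505476. Its ratio was 0.924, 1.31 and 0.764 in vehicle, 2.62, 3.08 and 3.36 in RA and 1.1, 1.31 and 1.5 in TSA. The RA arrays lay above all others, and TSA overlapped with vehicle. The means were 3.02 ± 0.376 in RA and 1.3 ± 0.2 in TSA (SD, n = 3), with a log2 change of 1.57 in RA (SE 0.24, limma adjusted p = 0.0202) and an excess over TSA of 1.18 (SE 0.24, limma adjusted p = 0.0323). The second probe set read 0.334, 0.645 and 2.02 in vehicle, 1.58, 2.08 and 2.27 in RA and 1.03, 0.908 and 1.39 in TSA. Vehicle replicate 3 lay among its RA arrays, and the RA change of 1.29 (SE 0.54) did not pass (limma adjusted p = 0.364), but did without that array (1.96, limma adjusted p = 0.0365). The average of both sets passed over genes, with 1.43 in RA (limma adjusted p = 0.0472), and not against TSA, with 1.00 (0.096). The RA call of the first set was lost in the fit on the 6 arrays compared (limma adjusted p = 0.0819) and after quantile normalisation (0.139). That call was also lost without vehicle replicate 1 (0.0579) or any 1 RA array (0.0633, 0.0922 and 0.0733 for replicates 1 to 3). Without vehicle replicate 3 and RA replicate 3 together the first set did not pass either (0.0963). Its difference from TSA was lost without any 1 RA array (0.0736, 0.106 and 0.103), any 1 TSA array (0.118, 0.114 and 0.0746) or the same 2 arrays (0.0655), and after quantile normalisation (0.191).

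Plexins are the signalling receptors of semaphorins, and none of their 6 probe sets passed limma's test in any comparison, with 1 at an unadjusted p under 0.05 in each. The largest change was that of Plxna2, 1.51 in RA and 1.14 in TSA (SE 0.60, limma adjusted p = 0.339 and 0.335). Its ratios were 0.38, 0.45 and 2.17 in vehicle, 1.42, 2.19 and 3.32 in RA and 1.39, 1.8 and 1.88 in TSA, and vehicle replicate 3 alone was not below the treated arrays. Without it both changes passed, at 2.27 in RA and 1.90 in TSA (limma adjusted p = 0.0291 and 0.0344). Plxna1 changed by -0.03 in RA and -0.05 in TSA, and Plxna3 by -0.19 and -0.36. The probe sets of Plxnb2 changed by -0.29 and 0.13 in RA and by 0.00 and -0.28 in TSA. Plxna3, and Plxnb2 on its second probe set, had TSA arrays below all vehicle arrays, by less than the test required.

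Epha4, a receptor that binds both A and B ephrins, rose with RA on the first of its 2 probe sets (gene at chr1:77367182-77515107). Its ratio was 0.931, 1.07 and 0.999 in vehicle, 1.86, 1.89 and 2.14 in RA and 1.01, 0.802 and 0.878 in TSA. The RA arrays were close together above all others, and TSA overlapped with vehicle. The RA mean was 1.96 ± 0.154 (SD, n = 3), a log2 change of 0.94 (SE 0.17, adjusted p = 0.0426), and RA exceeded TSA by 1.09 (SE 0.17, adjusted p = 0.0137) by limma. The RA call lay nearest the threshold and was lost without any 1 of the 9 arrays. For replicates 1 to 3 the limma adjusted p was then 0.102, 0.131 and 0.0612 (vehicle), 0.127, 0.146 and 0.129 (RA), and 0.0852, 0.078 and 0.0906 (TSA). That call was also lost after quantile normalisation (limma adjusted p = 0.0817) and with the replicate block (0.074). The fit on the 6 arrays compared gave 0.167, and that without vehicle replicate 3 and RA replicate 3 together 0.126. The difference from TSA was lost without TSA replicate 2 (0.0695) or 3 (0.0577) and after quantile normalisation (0.0536). The second Epha4 probe set read 1.45, 0.764 and 0.786 in vehicle, 1.97, 0.837 and 0.67 in RA and 0.414, 1.04 and 0.545 in TSA, and changed by 0.11 in RA (limma adjusted p = 0.959). The average over both sets did not pass, with 0.53 in RA (limma adjusted p = 0.373) and 0.90 against TSA (0.0711).

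**Figure D2:**
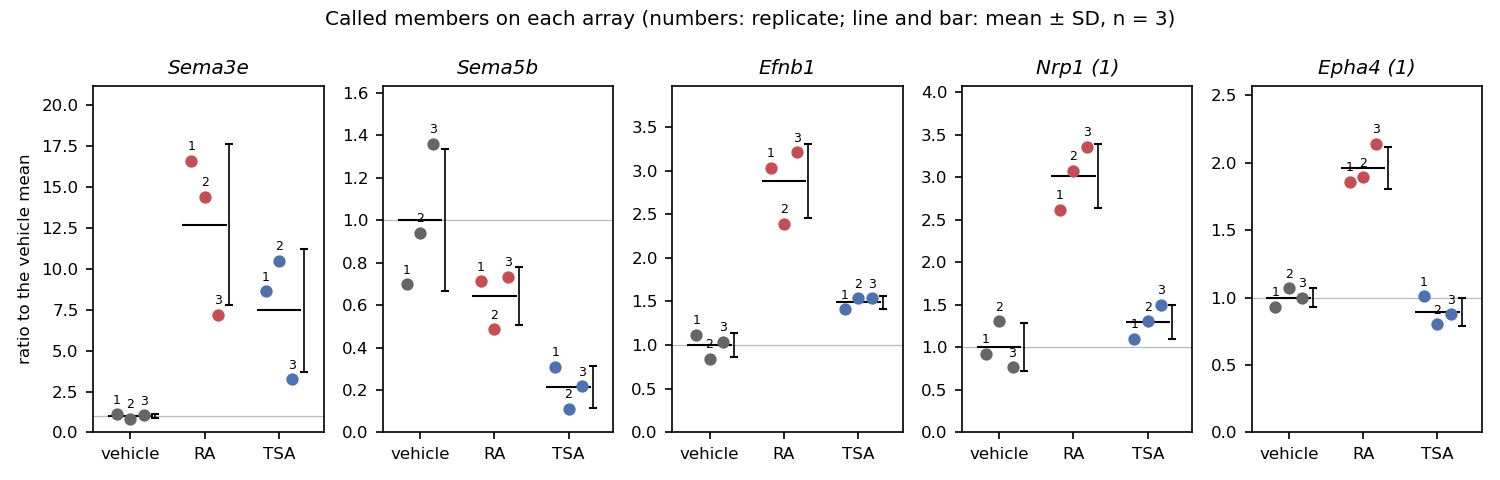
Ratio to the vehicle mean (linear axis from 0) of the 5 member probe sets called in any comparison, on each of the 9 arrays; digits give the replicate, and the line and bar the mean ± SD (n = 3). RA means were 12.7 for Sema3e, 2.88 for Efnb1, 3.02 for Nrp1 and 1.96 for Epha4, and the TSA mean of Sema5b was 0.213.

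The RA arrays of 3 other EphA probe sets lay above all vehicle arrays without passing. With that of Epha4, these were 4 of 10 EphA sets, or 40%. Of all 12422 probe sets 737 lay above vehicle in this way, and 17% were apart in either direction. Whether the family differs from the background was not tested. Epha2, a receptor of A ephrins found in epithelia and early embryos, read 2, 1.91 and 2.18 in RA, 1.32, 1.66 and 1.5 in TSA and 0.797, 1.01 and 1.2 in vehicle. The 3 groups did not overlap, and the RA change of 1.00 (SE 0.20) had a limma adjusted p of 0.0596. It passed after centring the arrays (limma adjusted p = 0.0367), without vehicle replicate 3 (0.0407) and when tested over genes (0.0427). The second probe set of Epha7, a receptor of the developing brain, read 3.49, 4.4 and 3.5 in RA against 0.676, 0.973 and 1.35 in vehicle, a change of 1.92 (SE 0.48, limma adjusted p = 0.12), and 3.05, 1 and 0.736 in TSA. Without TSA replicate 1 it passed, at 1.92 against vehicle and 2.07 against TSA (0.0347 and 0.0264). The first probe set of the same gene read 0.223, 0.424 and 1.57 in RA and 0.945, 0.309 and 1.75 in vehicle, a change of -0.54. These sets of Epha7 were 2.45 apart in RA on the log2 scale, the widest gap within a member gene in that comparison. Epha6 read 2.22, 2.36 and 3.17 in RA against 0.421, 2.01 and 0.567 in vehicle, a change of 1.62 (SE 0.60, limma adjusted p = 0.295).

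**Figure D3:**
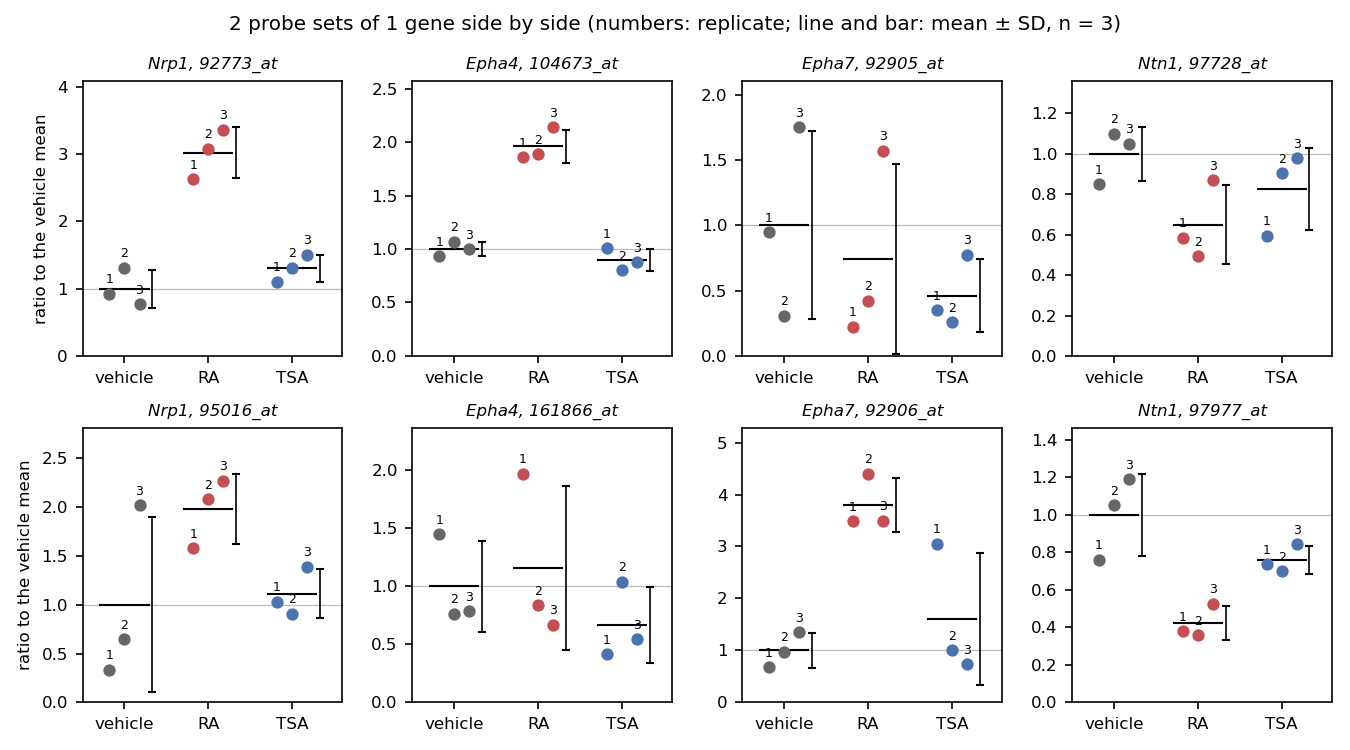
Ratio to the vehicle mean (linear axes from 0) on each array for the 2 probe sets of Nrp1, Epha4, Epha7 and Ntn1, in the upper and lower row; digits give the replicate, and the line and bar the mean ± SD (n = 3). The log2 changes in RA were 1.57 and 1.29 for Nrp1, 0.94 and 0.11 for Epha4, -0.54 and 1.92 for Epha7 and -0.61 and -1.15 for Ntn1.

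The other EphA probe sets overlapped between RA and vehicle. Epha3 changed by 0.29 in RA and -0.45 in TSA, Epha8 by -0.21 and -0.43, and the sets of Epha5 by -0.39 and -0.49 in RA and 0.07 and -0.92 in TSA, where the second lay below vehicle. In the EphB family Ephb3 read 1.9, 2.89 and 2.36 in TSA against 1.64, 0.442 and 0.914 in vehicle and 1.23, 1.76 and 1.43 in RA. Its TSA arrays lay above all others, and the TSA change was 1.37 (SE 0.41, limma adjusted p = 0.119), or 1.80 and past the threshold without vehicle replicate 1 (0.0462). The sets of Ephb6, an Eph receptor without kinase activity, changed by 0.59 and 0.07 in RA and by -0.13 and -0.19 in TSA.

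Robo1, a receptor of slits, read 1.22, 1.45 and 0.324 in vehicle, 1.38, 0.135 and 0.581 in RA and 0.8, 1.79 and 1.9 in TSA, and all groups overlapped. Its largest change was -1.40 in RA against TSA (SE 0.79, limma adjusted p = 0.437). Robo3, a divergent member of the family, changed by -0.37 in RA and 0.18 in TSA. Unc50, which is no guidance receptor, read 1.26, 1.14 and 1.29 in RA, 0.964, 0.842 and 0.828 in TSA and 1.08, 0.989 and 0.927 in vehicle, and did not pass (largest change 0.47, RA against TSA, limma adjusted p = 0.205).

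By role, 2 of 32 ligand probe sets and 2 of 24 receptor probe sets rose with RA, and 1 ligand set each way but no receptor set passed in TSA, where 4 receptor sets had an unadjusted p under 0.05 by limma. Of all probe sets 0.934% were called higher in RA and 3.48% called in TSA, so a count of 0 among 24 receptor sets in TSA is near the background. The median log2 change in RA was -0.12 over the ligands and 0.14 over the receptors, and in TSA it was 0.10 and 0.04. Groups whose arrays do not overlap were more frequent than calls. In RA against vehicle 12 members were apart (9 higher and 3 lower), or 21.1%, beside 17% of all probe sets (737 higher and 1369 lower). In TSA against vehicle 13 were apart (6 higher and 7 lower), or 22.8%, beside 26.3% (1150 higher and 2123 lower). In RA against TSA 18 were apart (13 higher and 5 lower), or 31.6%, beside 27.3% (1716 higher and 1672 lower).

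Of the 44 member genes, 12 had several probe sets, 25 sets in all. Epha4 and Nrp1 were the only ones of these 12 with a call, and in both genes 1 of 2 sets passed. Sema3e, Efnb1 and Sema5b each rest on 1 probe set, so no second measurement was at hand for them.

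The partners and effectors of these receptors were counted in the same way. A list of 71 further guidance genes (co-receptors, adhesion molecules, collapsin response mediators, kinases, GTPases and adaptors) had 49 genes measured by 67 probe sets. By limma none passed in RA against vehicle, where 6 had an unadjusted p under 0.05 (4 higher and 2 lower) and Abl1, a kinase below Robo and Eph receptors, came closest (limma adjusted p = 0.0574, named after its values were seen). A count of 0 among 67 is near the 1.36% of all probe sets called in RA, and 1 set passed after centring and 1 gene by gene average. In TSA against vehicle 3 rose and none fell, or 4.48% beside the 3.48% of all probe sets. Cntn1, a contactin on axons, read 4.31, 2.71 and 2.73 in TSA against 0.983, 0.914 and 1.1 in vehicle (log2 change 1.62, limma adjusted p = 0.0107). Fyn, a kinase that acts below semaphorin and netrin receptors, rose by 1.45 (limma adjusted p = 0.0341), and the GTPase Rras, on which plexins act, by 0.78 (0.0415). Cntn1 passed in each of 9 fits without 1 array (limma adjusted p up to 0.0434). Fyn was lost without vehicle replicate 2 or 3 (0.105 and 0.0522), RA replicate 2 (0.0618) or any 1 TSA array (0.106, 0.138 and 0.0892), and Rras without any 1 of the 9 arrays (0.0555 to 0.145).

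Between the treatments, Cntn1 was lower in RA than in TSA (-1.78, limma adjusted p = 0.00605). Vegfa, a ligand of Nrp1 named after its values were seen, read 1.42, 2.07 and 1.49 in RA and 0.559, 0.522 and 0.441 in TSA and was higher in RA by 1.60 (limma adjusted p = 0.0118), a call lost without TSA replicate 2 (0.0517). The netrin receptors Dcc and Neo1 did not pass in any comparison. The list had a median of -0.03 (RA) and -0.01 (TSA) on the log2 scale.

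Markers of cell types in which guidance genes are prominent were read on the same arrays. Of 17 neural probe sets for 10 genes, 4 rose in TSA (2 of Mapt and 1 each of Syt1 and Tubb3) and 1 rose in RA (Syt1), or 23.5% and 5.88%, beside the 3.48% and 1.36% of all probe sets called in TSA and RA. Others went the other way: 5 sets lay below 0 and 12 above in TSA, and 12 below and 5 above in RA. Of all 12422 probe sets 7936 lay below 0 in TSA and 7736 in RA. The lowest neural sets were 1 set of Stmn2 in TSA (-1.77, limma adjusted p = 0.0749) and Nefl in RA (-1.18, 0.119), both with arrays below vehicle. The mean log2 ratio of the neural list ran from -0.03 to 0.08 on the vehicle arrays, from -0.07 to 0.01 in RA and from 0.46 to 0.88 in TSA. None of 12 endothelial probe sets passed in limma's test in either treatment, with 1 at an unadjusted p under 0.05 in each, and their means ran from -0.33 to 0.38, -0.17 to 0.25 and 0.17 to 0.48. In the fibroblast list 3 of 15 rose in TSA and none passed in RA, where 4 had an unadjusted p under 0.05 by limma; the means ran from -0.55 to 0.50 in vehicle, -0.19 to -0.15 in RA and 0.45 to 0.63 in TSA. The 3 calls are 20% of the list, but its median ratio in TSA was 0.955, 0.887 and 1.04, while 1 set each of Col1a1, Cnn1 and Thy1 rose by 4.31, 3.18 and 3.00 on the log2 scale. Of 11 probe sets of the undifferentiated state, 4 fell in RA and 3 in TSA (36.4% and 27.3%), with means from -0.19 to 0.26, -1.33 to -1.02 and -0.86 to -0.69. In TSA 10 of them lay below 0 and 1 above, that of Dppa3 (2.01, limma adjusted p = 0.24). The parietal endoderm list had 1 rise of 11 in RA (Plat) and 2 in TSA (9.09% and 18.2%), with means from -0.28 to 0.27, 0.14 to 0.41 and 0.17 to 0.74 and a median ratio in TSA of 0.889, 1.1 and 0.883. The visceral endoderm list had no call among 10 in either treatment, with 0 and 1 at an unadjusted p under 0.05 by limma and means from -0.60 to 0.44, -0.03 to 0.10 and -0.24 to 0.27. As the values are ratios, none of these markers could be called absent, and their part in the guidance genes' changes was not tested.

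**Figure D4:**
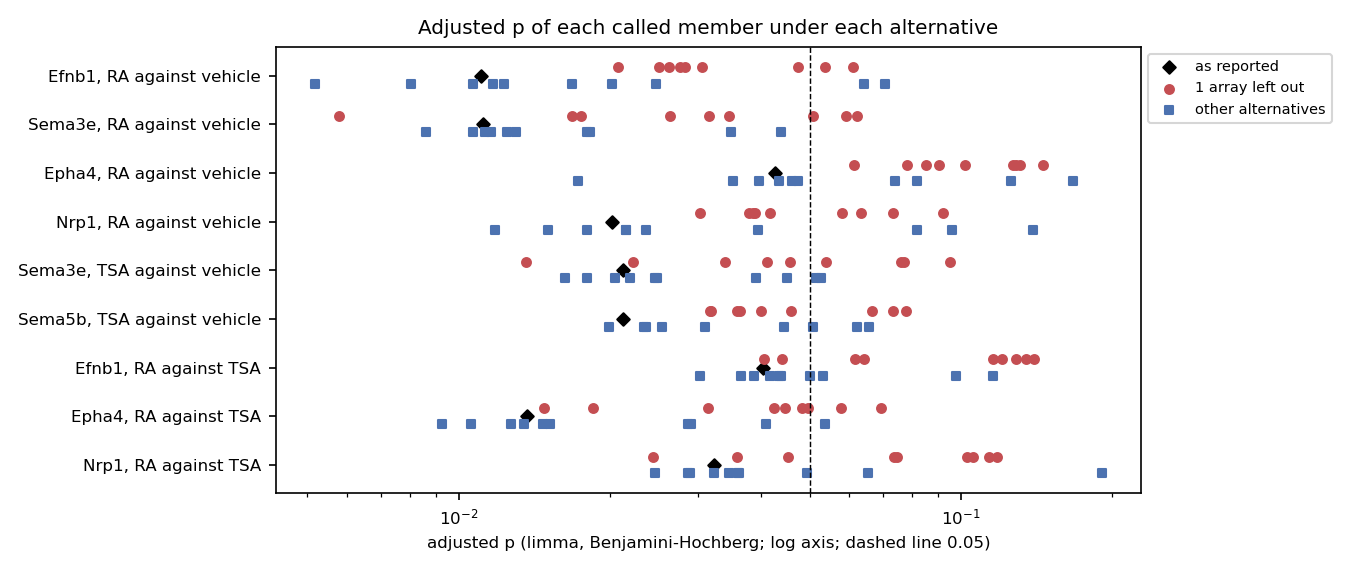
Adjusted p (limma, Benjamini-Hochberg, log axis) of each of the 9 calls of members as reported (black), with 1 array left out (red) and under the other alternatives (blue); the dashed line marks 0.05. Sema3e and Epha4 kept the call in 16 of 19 alternatives for RA against vehicle and RA against TSA respectively, and Epha4 in RA against vehicle kept it in 6 of 19. The test over genes is not among these 19, and both Epha4 calls were lost in it.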

How the data were processed

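RNA of 9 F9 samples was hybridised to Affymetrix arrays, per the labels, which name GeneSpring for the vehicle samples' raw data. For background correction and probe summary, the method is not given in the sources used here. The authors' deposited values are ratios: in every row the vehicle arrays average 1 (within 1.9e-07). Sample titles gave the groups.

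The 66 control probe sets were left out. A platform annotation gave 1 symbol for 10833 of 12422 probe sets, several for 396 and none for 1193; only single symbols were used, updated through Entrez IDs with RefSeq's GRCm38.p6 table, and no member's symbol changed. Promoter windows (250 bases before to 50 after a start) came from RefSeq.

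Tests used log2(ratio + 0.05), which understates changes of low values; no member value was below 0.111. All 9 arrays entered a single fit with limma 3.58.1 in R 4.3.3, from which 3 comparisons were taken, with Benjamini-Hochberg adjustment over 12422 probe sets and no filter. Simulated data for RA against vehicle (12422 probe sets, 200 changed, 20 runs) had independent noise of equal spread in all groups. There the fit recovered 19.2% of 2-fold rises, 63% of 4-fold and 81% of 8-fold rises, and 5.39% of calls were false. The measured arrays differed from this, with a median SD over all probe sets of 0.413 (vehicle), 0.311 (RA) and 0.26 (TSA). Vehicle replicate 3 and RA replicate 3 also deviated together (correlation 0.289). The rates therefore describe the simulated model, and the false share among the calls reported here was not tested. The number of arrays limits the precision. By plan, values on every array were given for each called member and for the largest change of each family without a call. Array values of further members were also given, many with groups apart or near the threshold. These were picked with their values seen, and the rest were named by family. The members, lists and tests were chosen with earlier results of these data known.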

Additional observations from a re-analysis of the deposited data

How the results depend on the processing

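The 9 calls of members were tried under 19 alternatives (18 for Sema5b), and no called value changed sign. The test over genes, which averages the probe sets of a gene, is not among the 19. In it Epha4 lost both calls (limma adjusted p = 0.373 in RA and 0.0711 against TSA). Nrp1 lost its call against TSA there (0.096), and the other calls passed. In each call the arrays of the groups compared did not overlap. Leaving out arrays or changing the added constant or the variance model could therefore not turn the sign, and the kept sign is no support. The members called were 4 in RA, 2 in TSA and 3 in RA against TSA; after quantile normalisation they were 2, 1 and 0, in fits on the 6 arrays compared 1, 0 and 2, and without vehicle replicate 3 and RA replicate 3 (added after seeing the data) 2, 2 and 1. Leaving out 1 array gave from 0 to 6 members in RA, from 0 to 3 in TSA and from 0 to 3 in the direct comparison. In TSA 1 member passed with the 30% filter on the mean ratio, which removed Sema5b, and 1 with the variance trend. As every vehicle mean is 1, that filter tends to keep rises and remove falls. Over all probe sets it left 120 higher and 7 lower calls in RA, beside 116 and 53 without it. The further guidance genes called, 0 in RA, 3 in TSA and 2 in the direct comparison, were 1 in RA after centring and 1 by gene average, 1 in TSA after quantile normalisation, on 6 arrays and without vehicle replicate 3 and RA replicate 3, and 4 in the direct comparison with the replicate block and without those 2 arrays. Leaving out 1 array gave 0 of them in RA, from 1 to 2 in TSA and from 1 to 3 in the direct comparison. Over all probe sets leaving out 1 array gave from 54 to 209 calls in RA (169 with all arrays), from 107 to 494 in TSA (432) and from 167 to 624 in the direct comparison (486), and quantile normalisation 87, 108 and 152. Where a count moved, the cause was not tested.

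Arrays with the same number did not all deviate together (correlations from -0.032 to 0.289), and not every array correlated best with its own number, so the numbers were not taken to pair them. The replicate 3 arrays did deviate together in each pair of groups (0.289, 0.237 and 0.19). Their correlations with arrays of other numbers were negative, from -0.3 to -0.017. Deviations were taken from each group's mean and so cancel within a group. These negative values are therefore tied by arithmetic to the positive ones and are no separate observation. Why the replicate 3 arrays deviated together was not tested. With the replicate block 3 members were called in RA, 2 in TSA and 2 in the direct comparison, the calls lost being Epha4 in RA (limma adjusted p = 0.074) and Efnb1 in RA against TSA (0.0501). A fit with array weights was run and set aside, since the iteration did not converge, and its calls are not given. Brightness is unknown, so signal over background could not be weighed, and SEs of the members ran up to 0.79.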
